A study of Rattus norvegicus with 8 samples.

Results

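A set of 5 genes of monoamine signalling was followed in the habenula: the serotonin receptor genes Htr3a, Htr4 and Htr5b, the adrenergic receptor gene Adra1d, and Ddc, which encodes aromatic L-amino acid decarboxylase. They were chosen as monoamine receptor and synthesis genes from a table that holds only probe sets that differed between the groups on these same arrays. Each has 1 probe set with that single symbol, so the genes make up 5 of 379 probe sets, of which 283 carry a single gene symbol. Habenula total RNA of male Sprague-Dawley rats was labelled with biotin and hybridised to a whole-transcript array, with 1 array for each rat. The stressed group was 4 rats (7, 8, 10 and 12) restrained in plastic film envelopes for 2 hours a day over 14 days. The non-stress group was 4 rats (1, 3, 4 and 5) left in their home cages. No age was given in the labels. The design text speaks of 4 rats a group, and the titles number each array by rat.

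The habenula is a small epithalamic structure that relays forebrain signals to the midbrain, where most serotonin and dopamine neurons lie, and it in turn receives monoamine fibres. Its medial part holds cholinergic and substance P neurons, and its lateral part holds mainly glutamatergic neurons. Serotonin receptors are of 2 kinds. Htr3a encodes the obligatory subunit of an ionotropic receptor, a cation channel that serotonin opens directly. Htr4 and Htr5b encode metabotropic receptors that act through G proteins: the Htr4 receptor stimulates adenylyl cyclase, and the Htr5b receptor, whose human counterpart is a pseudogene, is known in rodents for its habenular expression. Adra1d encodes a noradrenaline receptor coupled to phospholipase C. Ddc makes serotonin from 5-hydroxytryptophan and dopamine from L-DOPA.

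The 4 serotonin-related genes were lower in the stressed rats and Adra1d was higher. The largest of the differences was that of Htr3a, a fold of 1.33, and the smallest that of Adra1d, a fold of 1.20. The groups did not overlap for Htr3a, Ddc and Adra1d and overlapped for Htr4 and Htr5b. These counts describe the choice and are no test of stress. Of the 379 probe sets, 55.4% were lower in the stressed rats and 44.6% were higher. The groups were apart in 83.4% of the table, 46.4% with the stressed rats lower and 36.9% with them higher. The count of 3 of 5 depends on the setting: it was 4 of 5 after median centring or quantile normalization of the arrays, so it is not read against these shares. Without non-stress rat 4 it was 5 of 5, but leaving out a rat can only keep or raise such a count. The share of the table without that rat was not computed. In the authors' deposited table the p-values of the 5 genes run from 0.00529 for Ddc to 0.0258 for Htr4, unadjusted. The median absolute log2 difference was 0.32 over the 5 genes and 0.33 over the table.

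The stressed rats had less of the ion channel subunit Htr3a. Its log2 intensity was 8.37, 8.63, 8.20 and 8.18 in non-stress rats 1, 3, 4 and 5. In stressed rats 7, 8, 10 and 12 it was 7.89, 7.76, 8.06 and 8.003. Every stressed rat lay below every non-stress rat, with a gap of 0.12 between the nearest of the 2 groups. The means were 7.93 ± 0.13 and 8.34 ± 0.21 (SD, n = 4 each), a log2 difference of -0.41 ± 0.12 (standard error; stress minus non-stress, here and below). Non-stress rat 3 was the highest of the 8, and without it the difference was -0.32. In this bulk tissue, fewer cells of a type and less RNA per cell cannot be told apart.

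Htr4, the receptor gene that couples to adenylyl cyclase, had values of 10.15, 10.34, 9.89 and 10.13 in the non-stress rats, in the order given above. The stressed rats had 9.80, 9.67, 9.94 and 9.72. Non-stress rat 4 lay below stressed rat 10, so the groups overlapped. The means were 9.78 ± 0.12 and 10.13 ± 0.19 (SD, n = 4 each), a difference of -0.34 ± 0.11.

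Htr5b gave 9.48, 9.69, 9.29 and 9.48 in the non-stress rats and 9.20, 9.07, 9.10 and 9.31 in the stressed rats. Again non-stress rat 4 was the lowest of its group, here just below stressed rat 12. The means were 9.17 ± 0.11 and 9.48 ± 0.16 (SD, n = 4 each), a difference of -0.32 ± 0.10. When each array was centred on its median or quantile normalized, both over the table, the overlap of Htr5b went away, while Htr4 kept its overlap.

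Ddc, the synthesis enzyme, was the steadiest of the genes among the non-stress rats, at 9.47, 9.46, 9.36 and 9.37. The stressed rats had 9.06, 9.27, 9.04 and 9.05. Stressed rats 7, 10 and 12 lay close together, and stressed rat 8 stood between them and the non-stress group. The means were 9.11 ± 0.11 and 9.41 ± 0.06 (SD, n = 4 each), a difference of -0.31 ± 0.06, which was -0.36 without stressed rat 8. Ddc is also expressed in the pineal gland, which adjoins the habenula. Of the 6 pineal symbols listed, the table held Ddc alone, and of 9 markers of serotonin neurons, which also express Ddc, it held 0. A gene outside the table was either not past the table's rules or not measured, so these counts say nothing of its level, and the part of other cells in the Ddc difference was not tested.

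Adra1d went the other way. Its values were 7.73, 7.77, 7.69 and 7.93 in the non-stress rats and 8.01, 7.98, 8.12 and 8.06 in the stressed rats. All 4 stressed rats were above all 4 non-stress rats, by a gap of 0.05. The means were 8.04 ± 0.06 and 7.78 ± 0.11 (SD, n = 4 each), a difference of 0.26 ± 0.06. This difference stood at rank 369 of 379 by size. It lies just inside the table's fold rule, whose smallest absolute log2 difference is 0.26, and no probe set outside that rule was analysed here.

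**Figure D1:**
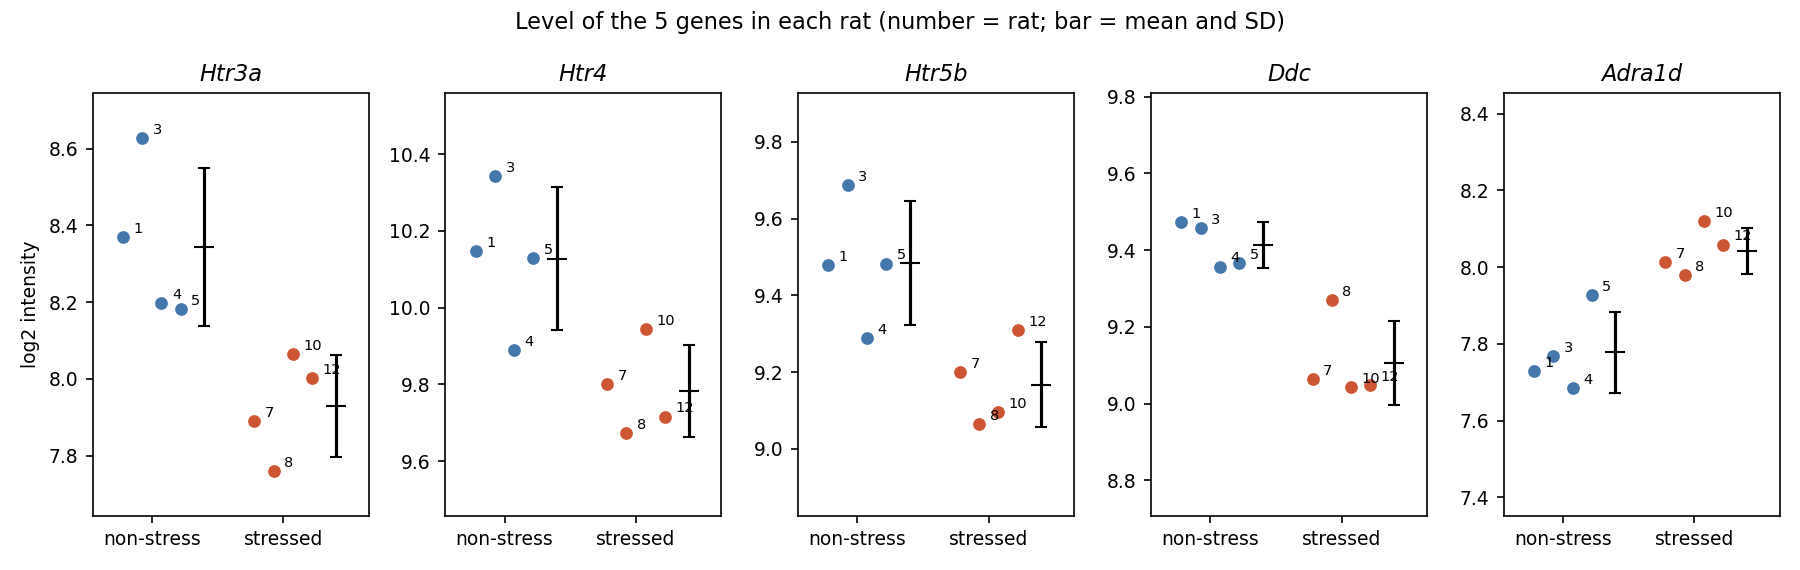
Log2 intensity (y axis) of each gene in every rat, by group, each panel spanning the same height. Points are rats with their numbers, and the bar beside each group is its mean and SD (n = 4). Htr3a, Ddc and Adra1d show separate groups, non-stress rat 4 reaches into the stressed range for Htr4 and Htr5b, and stressed rat 8 stands at 9.27 for Ddc.

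No other monoamine gene could be set beside these. Of 55 listed symbols for serotonin, adrenergic, dopamine, histamine and trace amine receptors, synthesis enzymes, transporters and degrading enzymes, the table held the same 5, with 4 lower, 1 higher and a median log2 difference of -0.32. The other subunit and receptor genes of the list, among them Htr1a, Htr2c, Htr3b and Tph2, were not analysed here. Levels of different genes were not compared, because probe sets differ in brightness.

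RefSeq promoter entries were matched for 3 of the 5 genes, namely Htr5b, Ddc and Adra1d, and not for Htr3a and Htr4. The 250 bases before the start are shown for these 3 because they include a pair of genes lower in the stressed rats and the only one that was higher. They are from assembly GRCr8, all on the minus strand of their chromosome, and are written in the direction of the gene. Htr5b lies at chr13:35252587-35252836, the most upstream of the 3 listed Ddc starts at chr14:90682784-90683033, and Adra1d at chr3:139262332-139262581. Capitals mark matches to the motifs searched.
Htr5b: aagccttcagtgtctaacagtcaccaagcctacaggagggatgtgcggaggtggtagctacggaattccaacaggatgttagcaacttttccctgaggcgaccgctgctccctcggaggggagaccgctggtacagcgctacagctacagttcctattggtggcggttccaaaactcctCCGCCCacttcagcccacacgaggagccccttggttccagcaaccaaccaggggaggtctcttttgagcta
Ddc: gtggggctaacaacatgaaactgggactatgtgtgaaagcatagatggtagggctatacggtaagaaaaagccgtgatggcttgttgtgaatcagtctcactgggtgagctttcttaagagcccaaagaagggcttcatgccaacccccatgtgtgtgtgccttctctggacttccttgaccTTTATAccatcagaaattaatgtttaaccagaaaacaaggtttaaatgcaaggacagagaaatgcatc
Adra1d: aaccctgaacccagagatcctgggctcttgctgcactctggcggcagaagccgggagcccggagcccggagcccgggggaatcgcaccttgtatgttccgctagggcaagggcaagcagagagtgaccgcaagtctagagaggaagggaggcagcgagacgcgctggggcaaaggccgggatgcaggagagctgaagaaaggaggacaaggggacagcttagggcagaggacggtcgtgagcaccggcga
The motifs, read on both strands, were the GC box GGGCGG, the TATA box TATAAA, the cAMP response element TGACGTCA, and its shorter form TGACG, which lies inside the longer. Htr5b held a GC box on the reverse strand, 66 to 71 bases before the start, a motif in 30.5% of all 33469 promoters of the table. Ddc held a reverse TATA box 63 to 68 bases before this start, a motif in 12.9% of promoters, and none of the 4 motifs before its other starts. None was present in the Adra1d window, which was the richest in G and C, at 64.0%. Htr5b had 56.8% and the Ddc start shown had 44.0% (median of all promoters 51.2%). The other Ddc starts had 54.4% and 52.8%. The array reads whole transcripts and does not tell the Ddc starts apart.

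The next comparison set the ionotropic receptor against the metabotropic ones. Within each rat, the log2 value of Htr3a minus the mean of Htr4 and Htr5b was -1.44, -1.39, -1.39 and -1.62 in the non-stress rats and -1.61, -1.61, -1.46 and -1.51 in the stressed rats. The groups overlapped only through non-stress rat 5, the lowest of the 8. The other non-stress rats all lay above every stressed rat, and without non-stress rat 5 the group difference was -0.14. The difference between groups was -0.08 ± 0.07, close to its standard error, and it ran from -0.14 with group medians to -0.03 after quantile normalization. No test was made, because all these genes were chosen on the same contrast.

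With Adra1d counted among the metabotropic receptors, the group difference in this ratio was -0.28 ± 0.08, and non-stress rat 5 lay just below stressed rat 10. That larger value comes with the opposite direction of Adra1d. Htr3a minus Adra1d alone, a ratio added after the values were seen, was 0.26 to 0.86 in the non-stress rats and -0.22 to -0.05 in the stressed rats, with no overlap. This separation follows from those of the 2 genes, whose groups were already apart in opposite directions.

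The 2 metabotropic serotonin receptors were lower by nearly equal amounts. Htr4 minus Htr5b, also added after the values were seen, differed by -0.03 ± 0.09. It ran from 0.60 to 0.67 in the non-stress rats (SD 0.03) and from 0.41 to 0.85 in the stressed rats (SD 0.18). Stressed rats 10 and 12 made up this range, rat 10 with high Htr4 and low Htr5b, rat 12 the reverse. The difference in spread was not tested.

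**Figure D2:**
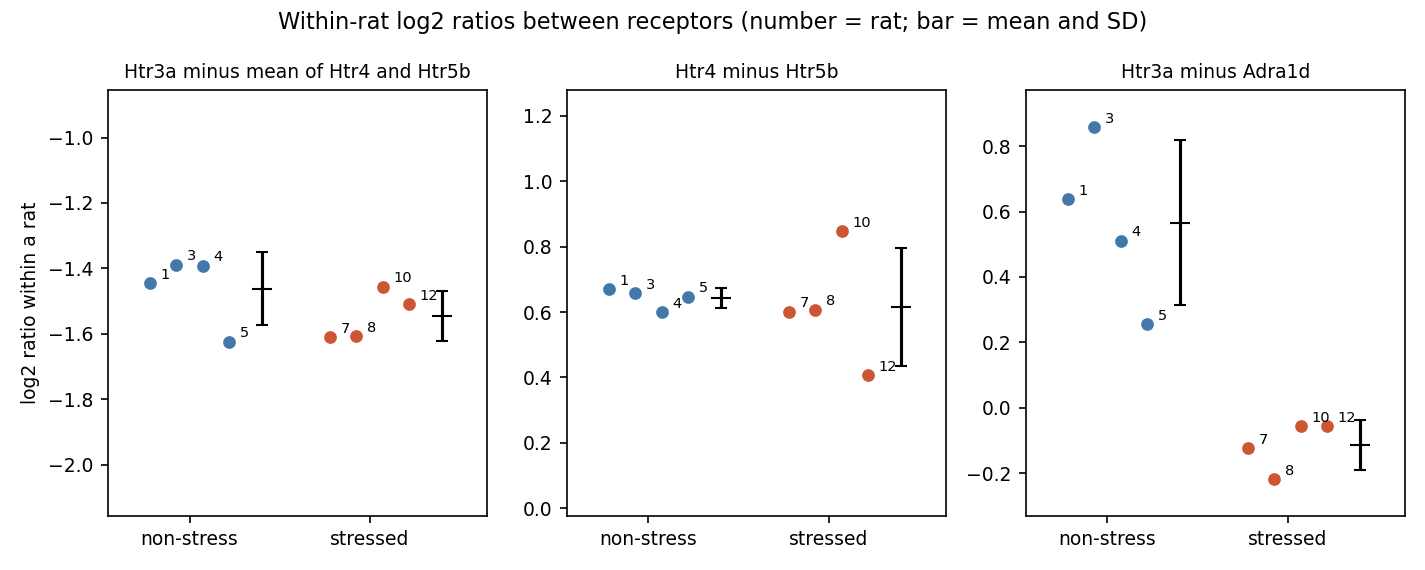
Log2 ratio between receptor genes within each rat (y axis), by group, in panels of equal height. Points are rats with their numbers, and bars are group means and SD (n = 4). For Htr3a against Htr4 and Htr5b the groups overlap only through non-stress rat 5. Htr4 minus Htr5b is tight in the non-stress rats and wide in the stressed rats (SD 0.03 and 0.18), and Htr3a minus Adra1d separates the groups.

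Whether the genes move together from rat to rat was asked on deviations from each group's own mean. The direction of these deviations was not part of the choice, but their size was, since the p-value of each probe set depends on the spread within groups. The 3 pairs of serotonin receptors had the highest coefficients of the 10. Pearson's r over the 8 rats was 0.80 for Htr3a with Htr4 (Spearman's rho 0.76), 0.71 for Htr3a with Htr5b (rho 0.57) and 0.62 for Htr4 with Htr5b (rho 0.55). None of these passed: over all 10 pairs of the 5 genes, 0 had a 2-sided exact permutation p (rats permuted within groups) under 0.05 before or after Benjamini-Hochberg adjustment, with the smallest unadjusted exact p at 0.0625 for Htr3a with Htr4 (adjusted p = 0.486; for rho, exact p = 0.0590, adjusted p = 0.507). Non-stress rat 3 was highest in all 3 genes and non-stress rat 4 lowest in Htr4 and Htr5b. Without the 2 rats farthest from the median of the first gene, r was 0.49, 0.08 and -0.23 for the 3 pairs in the same order (exact permutation p = 0.444, 0.889 and 0.688), so the size of each relation rests on the rats left out. These were non-stress rat 3 and stressed rat 8 for both pairs of Htr3a, and non-stress rats 3 and 4 for Htr4 with Htr5b. Non-stress rat 3 also had the highest array median, 8.77. In the same order of pairs, r was 0.67, 0.45 and 0.41 after median centring of the arrays. It was 0.62, 0.60 and 0.19 after quantile normalization.

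On the deposited values, Ddc had Pearson coefficients near 0 with the serotonin receptors. Its r was -0.09 with Htr3a, -0.01 with Htr4 and -0.03 with Htr5b (exact permutation p = 0.774, 0.972 and 0.948; adjusted p = 0.972 for each; rho -0.36, 0.02 and 0.00, exact p = 0.432, 0.974 and 1). Stressed rat 8 decided these values: it was the lowest stressed rat for Htr3a, Htr4 and Htr5b and the highest for Ddc. Without it r was 0.70, 0.60 and 0.60. Scaling moved them as well: r was -0.54, -0.20 and -0.32 after median centring of the arrays. After quantile normalization it was -0.53, -0.10 and -0.56. Without the 2 rats farthest from the median, r was 0.64, -0.57 and -0.56 (exact permutation p = 0.333, 0.396 and 0.396).

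Adra1d had r of 0.10 with Htr3a, 0.46 with Htr4, 0.26 with Htr5b and -0.44 with Ddc (exact permutation p = 0.854, 0.349, 0.627 and 0.253; adjusted p from 0.634 to 0.972; rho 0.36, 0.48, 0.52 and -0.50, with adjusted exact p from 0.507 to 0.547). Without the 2 farthest rats the values were -0.05, 0.44, 0.09 and -0.16. Single rats moved them as well: Htr4 with Adra1d was 0.16 without non-stress rat 4 and 0.80 without non-stress rat 5. Ddc with Adra1d was -0.72 without non-stress rat 4 (exact permutation p = 0.00694, adjusted p = 0.0694) and -0.30 without stressed rat 8. That exact p is the smallest the permutation can give with a rat left out, so this relation alone could not have passed after adjustment. Non-stress rat 5, the highest of its group for Adra1d, decided the value with Htr3a, which was 0.89 without it.

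**Figure D3:**
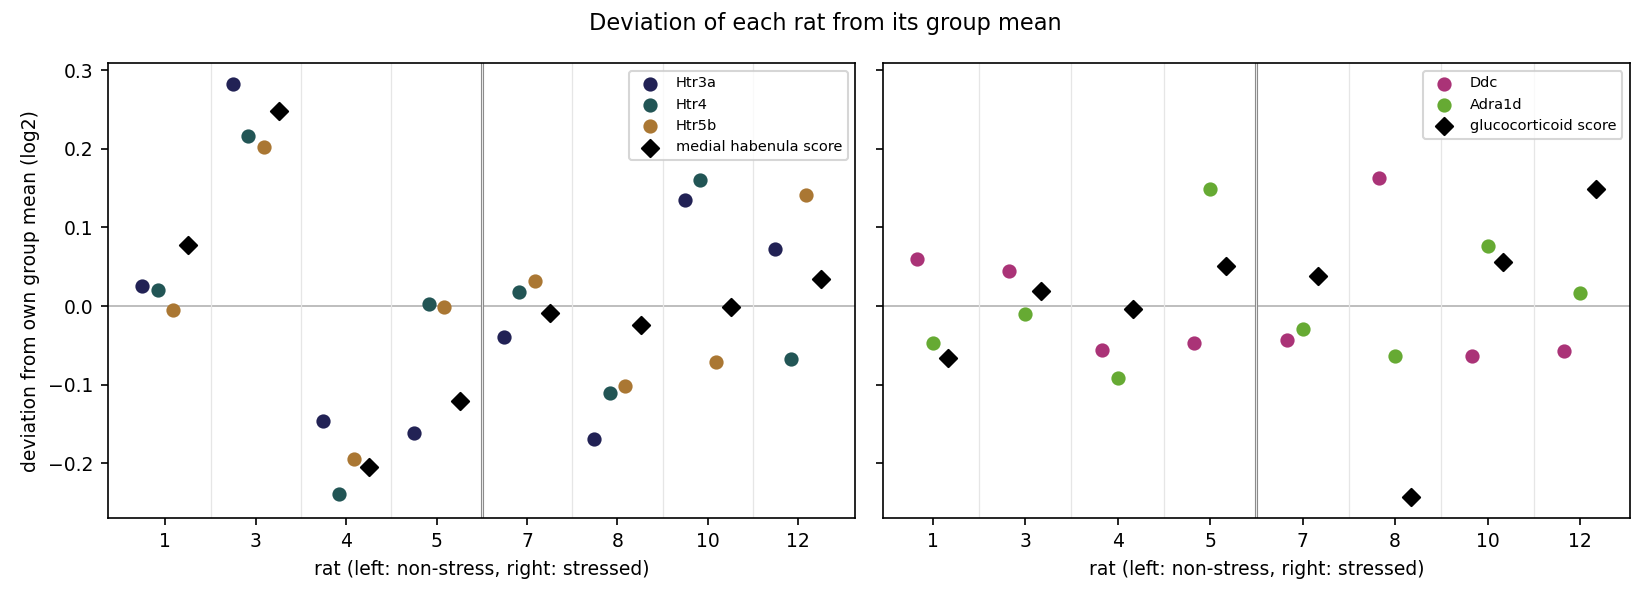
Deviation of each rat from its own group mean in log2 units (y axis), for the serotonin receptors with the medial habenula score (left) and for Ddc and Adra1d with the glucocorticoid score (right). Points are single rats, so no error is shown. Non-stress rat 3 deviates most for Htr3a and non-stress rat 4 for Htr4, and stressed rat 8 is high for Ddc and low for the glucocorticoid score.

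The genes were then set against a pair of scores, each the mean deviation of a list of other genes. The medial habenula list had 15 of its 26 symbols in the table, all 15 lower in the stressed rats with a median log2 difference of -0.46, in a table where 55.4% were lower. It includes the acetylcholine and choline transporters Slc18a3 and Slc5a7 and nicotinic receptor subunits such as Chrnb4, named here to say what the score holds. The mean levels of its 15 genes ran from 8.31 to 12.43 on the log2 scale, with no value below 7.94 in any rat; no detection calls were given. The glucocorticoid list had 18 of 24 in the table, 17 higher and 1 lower, with a median of 0.61, in a table where 44.6% were higher. Of 11 lateral habenula symbols, 2 were in the table, Vgf and Pvalb, both higher. All these lists were chosen with earlier results of these data known, and the table on this contrast, so these counts are no test.

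Htr3a followed the medial habenula score most closely, with r 0.85 (exact permutation p = 0.0139, adjusted p = 0.0694 over 10 relations; rho 0.81, exact p = 0.0174, adjusted p = 0.0868). For Htr5b r was 0.80 (exact permutation p = 0.0139, adjusted p = 0.0694; rho 0.67, exact p = 0.122, adjusted p = 0.243) and for Htr4 0.76 (exact permutation p = 0.0781, adjusted p = 0.195; rho 0.76, exact p = 0.0799, adjusted p = 0.200). None passed after adjustment. Without non-stress rats 3 and 4, r was 0.65 for Htr3a, 0.23 for Htr5b and 0.06 for Htr4. The score itself varied mostly among the non-stress rats, with an SD of 0.20 against 0.02 in the stressed rats. The relation was common in the table: the 191 other lower probe sets outside the list had a median r of 0.66 with the score, with quartiles of 0.31 and 0.86, and all 3 receptors lie between the median and the upper quartile. Array medians, taken over the 379 probe sets of the table only, moved with it too. They were 8.77 in non-stress rat 3 and 8.62 to 8.70 in the other non-stress rats. After centring each array on this median, r was 0.70 for Htr3a and 0.63 for both Htr4 and Htr5b. The table was chosen on this contrast and 55.4% of it was lower, so this centring may also take out part of the relation.

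Ddc had r 0.36 with the medial habenula score (exact permutation p = 0.288, adjusted p = 0.360; rho 0.17, exact p = 0.625, adjusted p = 0.681), which was 0.87 without stressed rat 8 and 0.17 without non-stress rats 3 and 4. Adra1d had -0.04 (exact permutation p = 0.943, adjusted p = 0.943; rho 0.21, exact p = 0.681, adjusted p = 0.681), and -0.68 without those non-stress rats.

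With the glucocorticoid score, Ddc had the largest coefficient of the 10 relations, r -0.89 (exact permutation p = 0.0503, adjusted p = 0.168; rho -0.83, exact p = 0.0312, adjusted p = 0.104), and it did not pass. Stressed rat 8 had a deviation of -0.24 in this score and 0.16 in Ddc. Without it r was -0.45, and without stressed rats 8 and 12 it was -0.59 (exact permutation p = 0.438). Adra1d had r 0.50 (exact permutation p = 0.104, adjusted p = 0.208; rho 0.81, exact p = 0.0104, adjusted p = 0.0868) and 0.70 without those rats. Htr3a, Htr4 and Htr5b had r 0.42, 0.26 and 0.46 (exact permutation p = 0.243, 0.486 and 0.177; adjusted p from 0.295 to 0.540; rho 0.45, 0.21 and 0.48), which became -0.07, 0.18 and 0.17 without stressed rats 8 and 12.

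**Figure D4:**
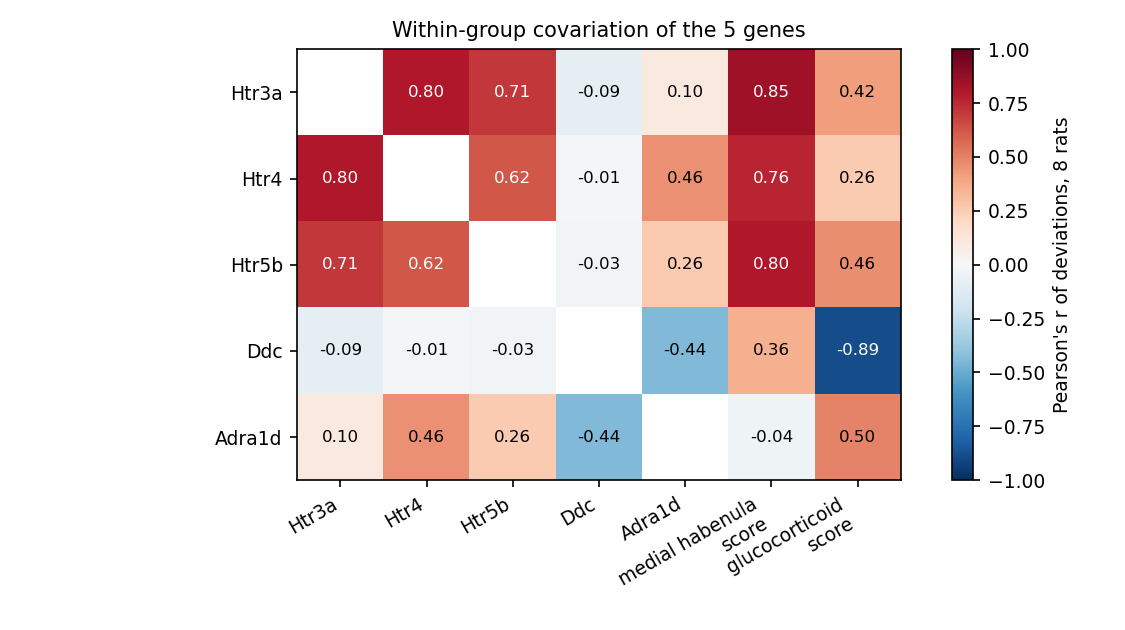
Pearson's r (colour, and printed in each cell) between the deviations of 8 rats from their group means, for the 5 genes (rows) against each other and against both scores (columns). Htr3a, Htr4 and Htr5b have r of 0.62 to 0.80 among themselves and 0.76 to 0.85 with the medial habenula score, and Ddc has -0.89 with the glucocorticoid score; 0 of the 20 relations passed after adjustment.

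**Figure D5:**
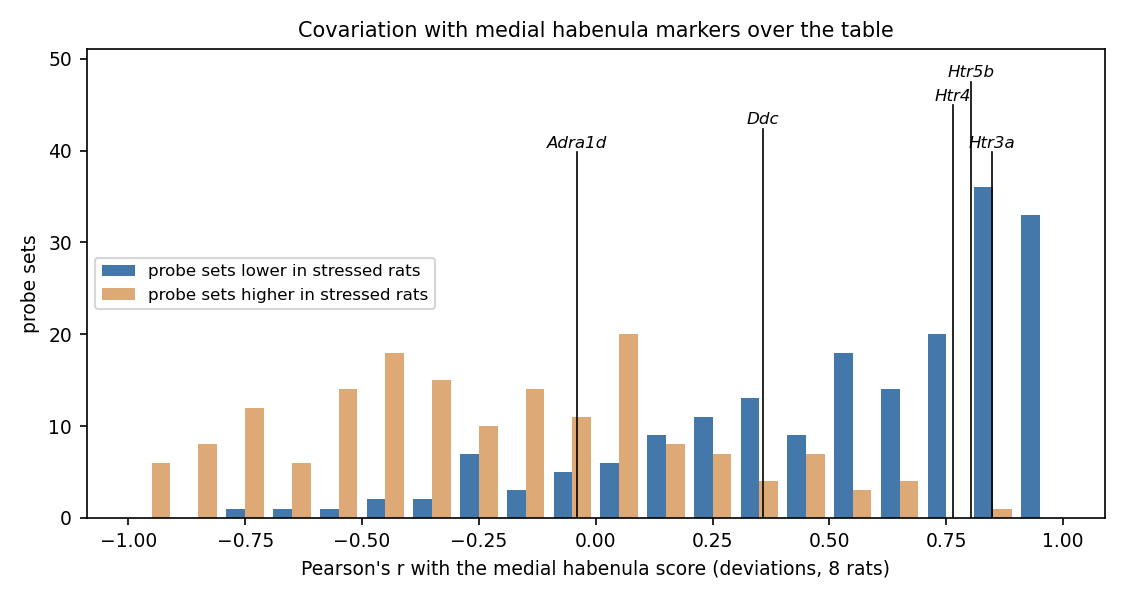
Number of probe sets (y axis) by their Pearson's r with the medial habenula score over 8 rats (x axis), for the 191 lower and 168 higher probe sets outside the score and the 5 genes, with lines at the 5 genes. Htr3a, Htr4 and Htr5b fall where many lower probe sets lie (median 0.66), while Ddc at 0.36 lies below that median.

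The genes nearest in pattern to each of the 5, by r of deviations over the 8 rats among the other probe sets with a single symbol, are given as a description. For Htr3a they were Slc5a7, the choline transporter (0.94), Elfn1, a synaptic adhesion protein (0.91), and Gucy1a1, a subunit of soluble guanylyl cyclase (0.91). For Htr4 they were the adhesion protein Amigo2 (0.94), Gucy1a1 (0.94) and Mx1, an interferon-induced GTPase (0.93). Gucy1a1 stood in both lists. For Htr5b they were the transcription factors Ikzf2 (0.92), Nr4a2 (0.91) and Pbx3 (0.90), of which Ikzf2 was higher in the stressed rats and dropped to 0.44 after median centring of the arrays.

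For Ddc the nearest were Dtx4, a ubiquitin ligase of the Deltex family (0.88), the microglial receptor Gpr34 (0.87) and Nipal4 (0.85). Stressed rat 8, with the largest Ddc deviation (0.16), weighs heavily on these coefficients. As ranks they were 0.76, 0.74 and 0.93. Of 8 microglial symbols 3 were in the table, all with groups apart, as were 83.4% of all its probe sets. Cd180 and Gpr34 were lower in the stressed rats (log2 differences -0.73 and -0.58) and Tmem119 was higher (0.37). Of 12 endothelial and mural symbols 3 were in the table, also with groups apart: the transporters Slco1a4 (-0.32) and Slco1c1 (-0.29) were lower and the glucose transporter Slc2a1 (0.27) was higher. The part of these cells in the Ddc difference was not tested. For Adra1d they were the adaptor protein Sla (0.85), the lipocalin Lcn8 (0.83) and the olfactory receptor Or4a77 (0.83), all 3 higher in the stressed rats. As ranks the coefficient of Lcn8 was 0.55. High coefficients were frequent for the serotonin receptors: 78 of 378 probe sets (20.6%) were over 0.7 with Htr3a, 74 (19.6%) with Htr5b and 59 (15.6%) with Htr4. With Ddc there were 17 (4.50%) and with Adra1d 12 (3.17%). The median r with the other lower probe sets was 0.56 for Htr3a, 0.52 for Htr5b, 0.46 for Htr4 and 0.29 for Ddc. Rats, arrays and scaling are shared by all of these values.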

How the data were processed

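The authors deposited log2 intensity values per probe set for 8 arrays; how they corrected background, summarized and normalized is not given in the sources used here. Both the annotated table and the series matrix hold identical values for 379 probe sets. Every deposited p-value is under 0.05 (largest 0.0499, unadjusted, method not stated by the authors) and every fold is at least 1.20, so the table is a list chosen on this contrast. Its deposited log2 difference equals stress minus non-stress. The members and gene lists were chosen with earlier results of these data known. The group contrast is therefore given with plain standard errors and no test. Covariation used deviations from group means, Pearson and Spearman coefficients and a 2-sided exact permutation over the 576 orders of rats within groups, adjusted over 10 pairs and over 10 relations with scores (threshold 0.05). Scores leave out the 5 genes. The code was tested on simulated data. Symbols came from the platform annotation. Genes named are the members, listed monoamine genes, the 3 most similar single-symbol probe sets of each member, and markers of short lists; others are named to describe a score. Alternatives were median centring, quantile normalization, group medians, ranks, leaving out rats, and dim probe sets (lowest 25%). Centring and quantile normalization used only the 379 probe sets of the table. Python 3.11.15, numpy 2.4.6, scipy 1.17.1 and pandas 2.3.3 were used. No batch or scan date was given, so none was tested.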

Additional observations from a re-analysis of the deposited data

Results flagged for a closer look

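A search of 18 sets of 4 rats for a value far from the rest turned up 1, where about 1 in 20 is flagged by chance. In it, stressed rat 8 had a Ddc level of 9.27 (log2), against 9.04 to 9.06 in the other stressed rats, while it stayed below the lowest non-stress rat at 9.36.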

How the results depend on the processing

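The 5 group differences kept their direction under every scaling, summary and left-out rat tried, and moved by less than the SD between rats. Leaving out each rat in turn gave -0.47 to -0.32 for Htr3a, -0.42 to -0.27 for Htr4, -0.38 to -0.25 for Htr5b, -0.36 to -0.29 for Ddc and 0.23 to 0.31 for Adra1d. The ratio of Htr3a to Htr4 and Htr5b ran from -0.14 (without non-stress rat 5) to -0.06. Of the table, 163 lower and 142 higher probe sets had groups apart after median centring, and 147 and 121 after quantile normalization, which shifted the table's median difference from -0.28 to -0.17. The count of covariation relations past the threshold was 0 in all settings. With 1 or 2 rats left out, too few orders of rats remain for a single relation to pass after adjustment. The 0 in those settings is therefore no sign of stability. Several uncalled coefficients turned sign, and the cause was not tested. Htr3a with Adra1d was -0.24 after median centring, -0.093 after quantile normalization and -0.050 without the 2 rats farthest from the median. Htr4 with the glucocorticoid score was -0.31 after quantile normalization. As ranks, Htr4 with Ddc was 0.024 and Adra1d with the medial habenula score 0.21. Without the 2 farthest rats Htr3a with Ddc was 0.64, Htr4 with Htr5b -0.23 and Htr3a with the glucocorticoid score -0.070. Leaving out single rats gave -0.44 to 0.70 for Htr3a with Ddc, -0.13 to 0.89 for Htr3a with Adra1d, -0.35 to 0.60 for Htr4 with Ddc, -0.32 to 0.60 for Htr5b with Ddc, -0.12 to 0.46 for Htr5b with Adra1d, -0.59 to 0.54 for Adra1d with the medial habenula score, and -0.013 to 0.57 and -0.12 to 0.46 for Htr3a and Htr4 with the glucocorticoid score. Of 30 recomputed coefficients of the most similar genes, 9 moved by 0.1 or more, of which Ikzf2 with Htr5b (0.44, median centring) and Lcn8 with Adra1d (0.55, ranks) moved by over 1.5 times. Background correction and slide were not varied, since only summarized values were used. No paired analysis was possible because the groups share no rat numbers. With 4 arrays a group, their number limits the precision.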
